A study of Rattus norvegicus with 6 samples.

Results

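A set of 5 genes of blood-derived cells was examined in the rat prostate: C1qb and C1qc, which encode chains of the complement protein C1q, Aif1, Coro1a and Ptprc. All probe sets that the platform annotation assigns to any of the 5 genes were taken, which gave 12 probe sets out of the 8799 on the array and 5 genes out of 4736 named ones. The genes had been singled out because most of them had lower values on the high corn oil arrays in an earlier look at these same arrays. The diet differences of the 5 genes are therefore a description, with no p-value, and they support nothing beyond themselves.

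The tissue was the dorsolateral prostate of male rats of the inbred ACI strain, taken after 18 months of feeding. The groups were rats fed a high corn oil diet (n = 3) and rats fed a low corn oil diet (n = 3), which the series text calls the control diet. Corn oil is a plant oil rich in linoleic acid. Each rat had its own array, part of each prostate was kept for histology, and the labels give an age of 18 months for every rat without stating the age at which feeding began. High corn oil replicate 3 carries the low diet in its free-text description, while its title and source name give the high diet, and it was kept with the high group.

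C1q is the recognition unit of the classical complement pathway. Its A, B and C chains assemble into a molecule that binds antibody complexes and dying cells and carries the proteases C1r and C1s, and in most tissues macrophages and dendritic cells make it. Aif1, also called Iba1, encodes a calcium-binding protein that bundles actin in macrophages and microglia and is widely used to stain them. Coro1a encodes coronin 1A, an actin-binding protein of leukocytes, and Ptprc encodes CD45, the receptor tyrosine phosphatase carried by almost all nucleated blood cells, whose transcripts are spliced into several isoforms. In a whole-tissue extract, fewer cells of a type and less RNA per cell cannot be told apart.

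In the RefSeq table of the rat assembly GRCr8, C1qb, C1qc and C1qa follow each other on the chromosome with no annotated gene between them. C1qa had no probe set named here. Promoter windows, from 250 bases before to 50 after the gene start, were held for 3 of the 5 genes and are shown because these genes had probe sets that were low on the same arrays. Capitals mark AGGAAGT or its reverse complement ACTTCCT, the core recognised by PU.1, an ETS factor of myeloid cells.
C1qb, GRCr8 chr5:154407778-154408077, minus strand: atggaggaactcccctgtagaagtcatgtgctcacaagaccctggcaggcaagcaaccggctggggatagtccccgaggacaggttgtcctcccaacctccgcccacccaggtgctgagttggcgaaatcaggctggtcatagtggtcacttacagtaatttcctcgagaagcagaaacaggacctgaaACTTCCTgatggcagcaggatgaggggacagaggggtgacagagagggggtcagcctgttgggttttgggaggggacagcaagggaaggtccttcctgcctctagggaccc
Coro1a, GRCr8 chr1:190731054-190731353, minus strand: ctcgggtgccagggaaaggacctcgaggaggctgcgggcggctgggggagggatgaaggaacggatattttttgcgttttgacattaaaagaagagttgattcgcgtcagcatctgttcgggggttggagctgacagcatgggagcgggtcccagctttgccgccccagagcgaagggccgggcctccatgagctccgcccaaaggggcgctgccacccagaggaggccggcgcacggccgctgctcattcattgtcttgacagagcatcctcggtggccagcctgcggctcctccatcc
Ptprc, GRCr8 chr13:52259697-52259996, minus strand: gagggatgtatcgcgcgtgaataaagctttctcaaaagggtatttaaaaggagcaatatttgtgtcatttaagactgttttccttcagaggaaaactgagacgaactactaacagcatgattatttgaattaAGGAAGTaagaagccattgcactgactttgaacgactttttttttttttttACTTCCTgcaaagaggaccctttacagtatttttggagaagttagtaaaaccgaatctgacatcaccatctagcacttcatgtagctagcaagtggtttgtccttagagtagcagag
The C1qb window held 1 match, beginning 61 bases before the start, the Ptprc window held 2, beginning 118 and 67 bases before it, and the Coro1a window held 0. Of all 33469 promoter windows of this length in the table, 8.41% held at least 1 match on either strand. A match of these letters describes the sequence only.

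Each value is a linear intensity of a probe set on an array. Median intensities ran from 572.6 to 710.3 in the high group and from 591.4 to 632 in the low group. Over 5244 probe sets, high corn oil replicate 1 had Spearman correlations of only 0.869 and 0.881 with the arrays of its own diet and of 0.927 to 0.950 with those of the low diet. The secretory products of the prostate epithelium were bright: Msmb, which encodes beta-microseminoprotein, read 73854, 33652 and 39953 under the high diet, against 66835, 71719 and 80234 under the low diet. Spermine-binding protein, Sbp, ranged from 1891 to 53056 under the high diet and from 6801 to 39729 under the low diet. Bacterial spike-in signal also divided the arrays across diets, with replicate 1 of the high diet and replicates 1 and 2 of the low diet above the rest. All differences below are high minus low corn oil on the scale log2(intensity + 156.1), with values below 0 set to 0, which understates the change of dim probe sets.

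Of the 12 probe sets, 8 had all 3 high corn oil values below all 3 low corn oil values. The same was true of 8.42% of the 8740 probe sets that are not controls. Of the 12, 9 passed the filter on mean intensity, set at 342.9, and 7 of these 9 were separate in that direction, beside 6.71% of the 5244 probe sets that passed. The Ptprc probe sets M10072mRNA_s_at and K03039mRNA_s_at passed only through low corn oil arrays. As the genes were chosen on this contrast, nothing is read from these counts. The 4 probe sets whose groups overlapped were 2 of Ptprc, 1 of C1qc and 1 of Aif1, and 0 lay wholly above the low corn oil values, as 8.83% of the tested probe sets did.

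**Figure D1:**
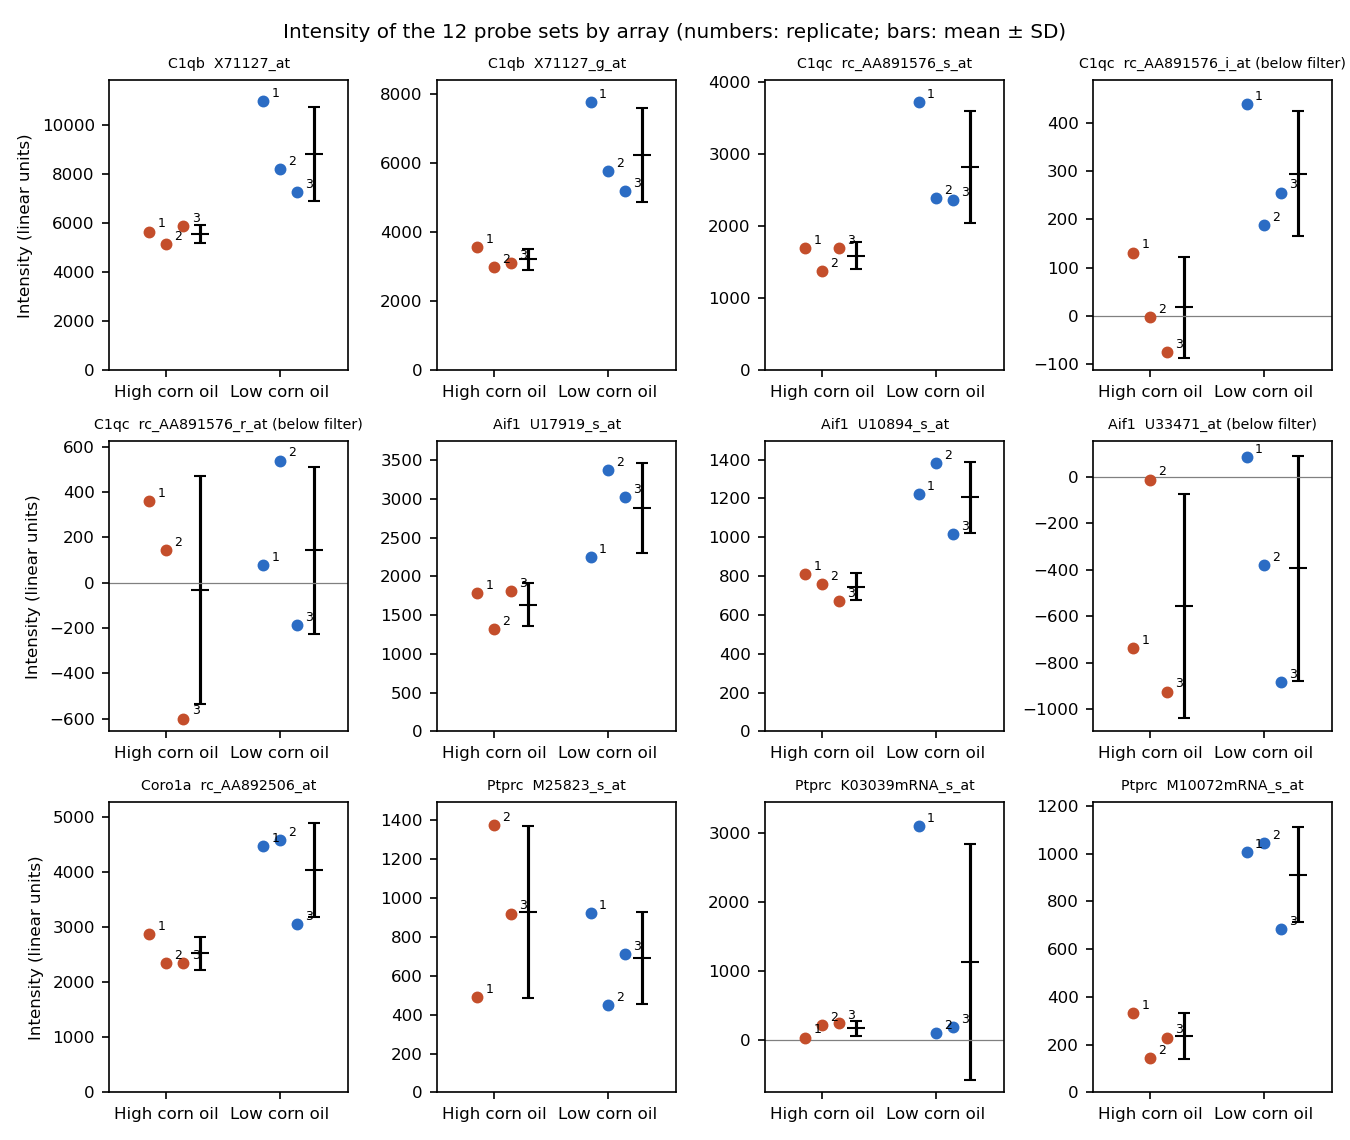
Intensity (linear units, vertical axis) of each of the 12 probe sets on the 3 high corn oil arrays (left, orange) and the 3 low corn oil arrays (right, blue), with replicate numbers and the mean ± SD beside them. In 8 panels every high corn oil point lies below every low corn oil point, and in the panel of Ptprc probe set K03039mRNA_s_at 1 low corn oil array, at 3108.5, lies far above the other 5.

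C1qb had 2 probe sets and both were lower on every high corn oil array. Probe set X71127_at of C1qb read 5657, 5157.5 and 5869 on high corn oil replicates 1 to 3 and 10977, 8199.5 and 7267 on low corn oil replicates 1 to 3. The groups did not overlap, and low corn oil replicate 1 was the highest array. The means were 5561 ± 365 under the high diet, against 8815 ± 1930 under the low diet (SD, n = 3 each), a ratio of 0.631 and a log2 difference of -0.63 ± 0.18 (SE). Probe set X71127_g_at of C1qb read 3557, 2990.3 and 3102 under the high diet, against 7759, 5769.5 and 5179 under the low diet. Its groups were again separate, with the same order of the low corn oil arrays, and its log2 difference was larger, at -0.91 ± 0.19. The suffix g marks a set whose probes are common to a group of sequences.

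C1qc, the gene of the C chain, had 1 probe set above the filter. Probe set rc_AA891576_s_at of C1qc read 1694.5, 1370.2 and 1692 under the high diet, against 3712, 2390.3 and 2357.5 under the low diet. No high corn oil array reached the lowest low corn oil array, and low corn oil replicate 1 was the highest, as in both C1qb probe sets. The means were 1586 ± 187 under the high diet, against 2820 ± 773 under the low diet (SD, n = 3 each), a log2 difference of -0.75 ± 0.22 (SE). The suffix s marks probes that may also match similar transcripts. The other C1qc probe sets were below the filter. Probe set rc_AA891576_i_at of C1qc, an incomplete set, read 131, -2.9 and -75.9 under the high diet, against 440.2, 189.1 and 255.8 under the low diet, so its groups were separate but 2 high corn oil values lay below 0 and no fold is given. Probe set rc_AA891576_r_at of C1qc, designed with some selection rules dropped, read 360.6, 145.3 and -598.7 under the high diet, against 78.9, 538.5 and -187.6 under the low diet, with overlapping groups and both diets spread around 0.

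Aif1 had 3 probe sets, of which 2 were above the filter and lower on every high corn oil array. Probe set U17919_s_at of Aif1 read 1785, 1315.5 and 1806 under the high diet, against 2246, 3377 and 3025 under the low diet. Here low corn oil replicate 1 was the lowest of its group and replicate 2 the highest, unlike the C1q probe sets. The means were 1636 ± 277 under the high diet, against 2882 ± 579 under the low diet (SD, n = 3 each), a log2 difference of -0.76 ± 0.22 (SE). Probe set U10894_s_at of Aif1 read 809, 758 and 672 under the high diet, against 1220.2, 1381 and 1017 under the low diet, a log2 difference of -0.59 ± 0.21. Its groups did not overlap, and low corn oil replicate 2 was again the highest. The third probe set of Aif1, U33471_at, was at or below 0 on 5 of 6 arrays, reading -735.9, -11.2 and -923.7 under the high diet, against 85.4, -380.8 and -881.9 under the low diet, and gave no usable level.

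Coro1a had a single probe set, rc_AA892506_at, and it was lower on every high corn oil array. It read 2873, 2341 and 2348 under the high diet, against 4465, 4579 and 3053 under the low diet. The groups were separated by a narrow gap, between replicate 1 of the high diet and replicate 3 of the low diet. The Coro1a means were 2521 ± 305 under the high diet, against 4032 ± 850 under the low diet (SD, n = 3 each), a ratio of 0.625 and a log2 difference of -0.63 ± 0.20 (SE).

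The 3 Ptprc probe sets disagreed with each other. Probe set M10072mRNA_s_at of Ptprc read 333.9, 142.9 and 229.5 under the high diet, against 1008, 1043 and 683 under the low diet. Its log2 difference, -1.46 ± 0.32 (SE), was the largest of the 9 tested probe sets. The mean was 235.4 under the high diet and 911.4 under the low diet. It therefore passed the filter of 342.9 only through the group where it was high. The difference of this dim probe set also moved with the pseudocount, to -0.83 with 624.5 and -1.83 with 39.03. Its low corn oil arrays had the order seen in Coro1a, with replicate 2 highest and replicate 3 lowest.

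Probe set K03039mRNA_s_at of Ptprc read 33.6, 218.2 and 244.4 under the high diet, against 3108.5, 103.5 and 185.2 under the low diet. Its log2 difference of -1.12 ± 0.95 rested on low corn oil replicate 1, and without that array it was 0.04. This probe set also passed the filter only through that array. Probe set M25823_s_at of Ptprc read 489.5, 1376 and 919.9 under the high diet, against 921, 449 and 709.6 under the low diet, a log2 difference of 0.31 ± 0.38 with overlapping groups. It was the brightest of the gene on average, so a rule of 1 probe set per gene gives Ptprc 0.31, while the mean of its 3 probe sets gives -0.76. Which exons or isoforms each set measures is not given in the sources used here.

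**Figure D2:**
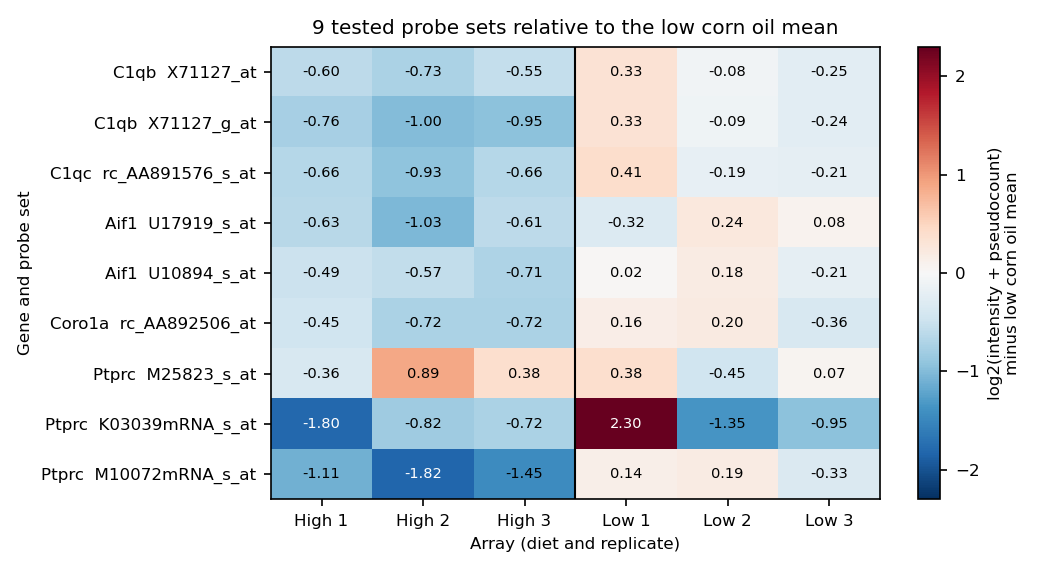
Each of the 9 tested probe sets (rows) on each array (columns, high corn oil left and low corn oil right), as log2(intensity + pseudocount) minus the mean of the low corn oil arrays, from blue (lower) to red (higher). The C1qb, C1qc, Aif1 and Coro1a rows are between -1.03 and -0.45 on all high corn oil arrays, and the Ptprc rows differ from each other.

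Within the diets the genes did not share 1 order of arrays. Relative to the low corn oil mean, C1qb and C1qc together (brightest probe set of each) stood at -0.63, -0.83 and -0.61 under the high diet, against 0.37, -0.14 and -0.23 under the low diet. Aif1 and Coro1a together stood at -0.54, -0.88 and -0.67 under the high diet, against -0.08, 0.22 and -0.14 under the low diet. The lowest array for both pairs was high corn oil replicate 2. Among the low corn oil arrays, replicate 1 was the highest for the C1q pair and replicate 2 for Aif1 and Coro1a.

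On high corn oil replicate 1 the brightest probe sets read -0.60 for C1qb (X71127_at), -0.66 for C1qc, -0.63 for Aif1 (U17919_s_at) and -0.45 for Coro1a relative to the low corn oil mean. Groups that do not overlap stay so when an array is left out, so the count of 7 separate probe sets could not become lower without 1 array, and the sign of their differences was equally fixed within the spike-in groups. The values within those groups are given for size only. Among arrays with high spike-in signal (1 high and 2 low corn oil) they were -0.73 for C1qb (X71127_at), -0.76 for C1qc, -0.59 for Aif1 (U17919_s_at), -0.63 for Coro1a and -1.27 for Ptprc (M10072mRNA_s_at). Among arrays with low spike-in signal (2 high and 1 low corn oil) they were -0.39 for C1qb (X71127_at), -0.58 for C1qc, -0.90 for Aif1 (U17919_s_at), -0.36 for Coro1a and -1.31 for Ptprc (M10072mRNA_s_at). The Ptprc probe sets whose groups overlapped had opposite signs in the 2 spike-in groups, with -0.32 (high signal) and 0.57 (low signal) for M25823_s_at and -2.28 and 0.18 for K03039mRNA_s_at.

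**Figure D3:**
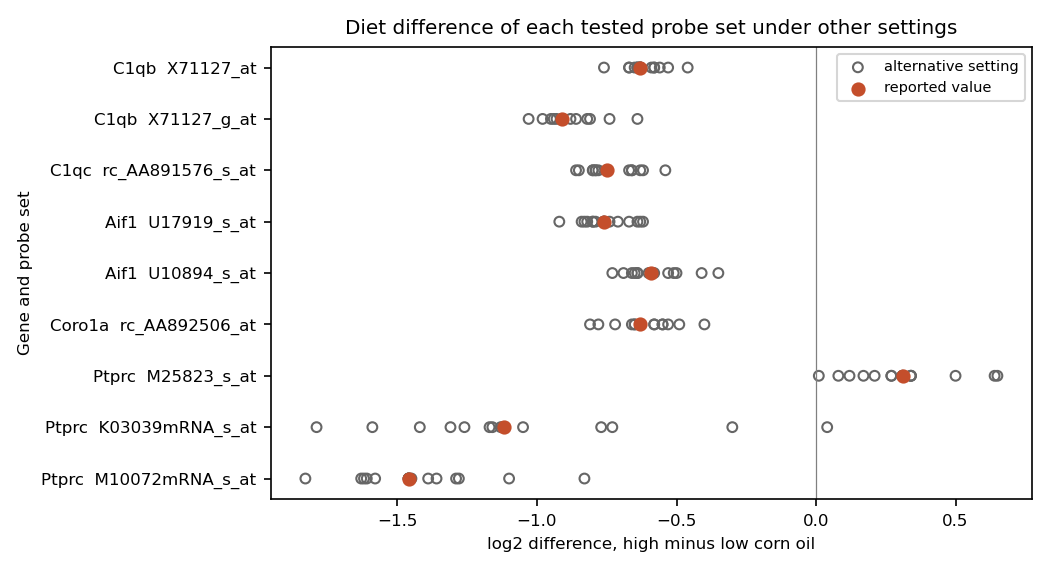
Log2 difference, high minus low corn oil (horizontal axis), of each tested probe set as reported (filled) and under each other setting that gave a value (open circles). For C1qb, C1qc, Aif1, Coro1a and Ptprc M10072mRNA_s_at all points lie below 0, Ptprc K03039mRNA_s_at reaches 0.04, and Ptprc M25823_s_at runs from 0.01 to 0.65.

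The test of diet across the whole array asked which other genes differed. Limma called 0 of the 5244 tested probe sets (0%) at an adjusted p of 0.05, with 522 (9.95%) at an unadjusted p under 0.05 and a smallest adjusted p of 0.462. No gene outside the 5 therefore passed, and the values that follow are given with that result. Over the 3162 tested genes, taken at their brightest probe set, the median log2 difference was 0.05, 44.2% were below 0 and 6.33% had all high corn oil values below all low corn oil values.

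The list of other macrophage and myeloid genes was read only in part, with 16 of its 42 genes measured and 14 tested. Most of its values were below 0, and none of those above 0 had separate groups. Of 14 tested genes 11 had a log2 difference below 0 and 3 above it, with a median log2 difference of -0.17, 4 had separate groups in that direction, and 0 passed limma. Without high corn oil replicate 1, 9 of the 14 were below 0 and the median was -0.11, and without low corn oil replicate 3 it was -0.30. The summed intensity of the list overlapped, at 59450 to 81264 under the high diet, against 80841 to 82718 under the low diet. The gene Lyz2, at 21111.5 to 39833.2 over the arrays, was the largest part of each sum. Clec10a, a galactose-binding lectin of macrophages, read 547.5, 628 and 285.6 under the high diet, against 1592, 841 and 857 under the low diet (-0.95 ± 0.35 SE, limma adjusted p = 0.48). Fcgr2b, the inhibitory receptor for IgG, was at -0.64 ± 0.25 with separate groups (limma adjusted p = 0.48), and Cyba, a subunit of the phagocyte oxidase, at -1.28 ± 0.47 with overlapping groups (limma adjusted p = 0.48).

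The remaining genes of this list ran from -0.72 to 0.22. The chemokine receptor gene Cx3cr1 was at -0.72 ± 0.30 and Ctss, which encodes the lysosomal protease cathepsin S, at -0.31 ± 0.15, both with all high corn oil values below the low ones (limma adjusted p = 0.494 and 0.508). Lyz2, which encodes lysozyme, was at -0.08 ± 0.24, the endotoxin co-receptor gene Cd14 at -0.07 ± 0.36, and Lgals3, which encodes galectin 3, also made by epithelia, at -0.12 ± 0.15, all with overlapping groups. Itgam, an integrin chain of myeloid cells, was at 0.22 ± 0.38. Csf1r, the receptor gene that macrophages depend on for survival, was below the filter, at 39.5, 164.3 and 218.2 under the high diet, against 317.7, 170.3 and 491.5 under the low diet. The differences between these genes and the C1q genes were not tested.

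Of the partners of C1q, the proteases of the same complex were lower and later components were not uniformly so. C1r read 8190, 6762 and 4914 under the high diet, against 13408, 10488 and 9814 under the low diet, with a log2 difference of -0.77 ± 0.22 (limma adjusted p = 0.462). C1s read 6501, 6114 and 4547 under the high diet, against 9918, 8605.5 and 7704 under the low diet, with a log2 difference of -0.61 ± 0.18 (limma adjusted p = 0.462). Neither group pair overlapped, and low corn oil replicate 1 was the highest array in both. Among the high corn oil arrays, however, replicate 3 was the lowest for C1r and C1s and replicate 2 for C1qb and C1qc.

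Over all complement genes outside the 5, 8 of 12 tested were below 0 with a median of -0.13 (0.00 when replicate 3 of the high diet was placed in the low group), and 3 had all high corn oil values below the low ones. The third was Cfd, factor D of the alternative pathway, at -1.08 ± 0.34 (limma adjusted p = 0.462). C3, on which the pathways converge, was at 0.29 ± 0.36 with overlapping groups. Serping1, the inhibitor of C1r and C1s, was at -0.12 ± 0.17, and C1qbp, named for binding C1q, at -0.15 ± 0.26. Calr, the chaperone calreticulin, which can also bind C1q, had all high corn oil values above the low ones, at 0.36 ± 0.17 (limma adjusted p = 0.505). The summed intensity of the complement list overlapped, at 94718 to 117146 under the high diet, against 82180 to 109167 under the low diet. Calr, at 24561.1 to 41626.4 over the arrays, was the largest part of each sum. Cd55 had the widest range, at 5213, 25042.9 and 38899.4 under the high diet, against 14153.8, 3541 and 5954.1 under the low diet. Its log2 difference was 1.34 ± 0.78 with overlapping groups. The sums therefore mainly describe these genes and not the list as a whole.

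Genes that, like Ptprc and Coro1a, are used across leukocytes were below 0 in 7 of 8 cases, with a median of -0.36 and 0 past limma. That median ranged from -0.44 to -0.10 over the other settings. The summed intensity overlapped, at 40183 to 44611 under the high diet, against 42320 to 50509 under the low diet. Most of each sum was Cd52, at 31022.8 to 38573.4 over the arrays, so the overlap mainly describes that gene. With each gene weighted equally, the list did not overlap by array. Relative to the low mean it stood at -0.34, -0.40 and -0.33 under the high diet, against 0.02, 0.07 and -0.08 under the low diet. Cd44, an adhesion receptor also found outside leukocytes, read 483.5, 453.1 and 515.3 under the high diet, against 912, 998 and 1008 under the low diet (-0.82 ± 0.22 SE, limma adjusted p = 0.462). Cd48, a ligand of lymphocyte receptors, was at -0.72 ± 0.21 with separate groups (limma adjusted p = 0.462), and Cd53, a leukocyte tetraspanin, at -0.58 ± 0.28 with overlapping ones (limma adjusted p = 0.508). Cd52, a surface peptide of lymphocytes and macrophages, was at -0.02 ± 0.14.

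The relatives of Coro1a and the actin machinery it works with were divided. Of 7 tested genes 4 were below 0, with a median of -0.12, which was 0.04 after quantile normalization. Coro1b, a widely expressed coronin, read 8173, 10817 and 10668 under the high diet, against 9362, 7759.7 and 7406 under the low diet (0.27 ± 0.17 SE, limma adjusted p = 0.556). Arpc4, a subunit of the Arp2/3 complex, was at -0.43 ± 0.21 (limma adjusted p = 0.508), and Cap1, which recycles actin monomers, at -0.37 ± 0.18 (limma adjusted p = 0.51). The related gene Aif1l was below the filter.

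Among other receptor phosphatases and the Src and JAK kinases on which CD45 acts, 8 of 14 tested genes were below 0, with a median of -0.06. Ptprj, a receptor phosphatase also present on leukocytes, read 1235, -1585.6 and -58.9 under the high diet, against 1054, 1651 and 858.7 under the low diet. Its value of -2.01 ± 0.84 therefore depends on the floor at 0. Limma called it without high corn oil replicate 1, as 1 of 214 calls among 5244 probe sets. Ptprf, an epithelial receptor phosphatase, had all high corn oil values above the low ones, at 0.36 ± 0.17 (limma adjusted p = 0.508). Lck, the T cell kinase activated by CD45, was at -0.66 ± 0.35 with overlapping groups (limma adjusted p = 0.523). Every probe set of the Src kinase gene Lyn was below the filter. L14782_s_at of Lyn read 428.5, -599.3 and -323.4 under the high diet, against 798.6, 584.5 and 771.3 under the low diet, with separate groups. The groups overlapped in its probe sets L14951_at and rc_AA946044_s_at.

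**Figure D4:**
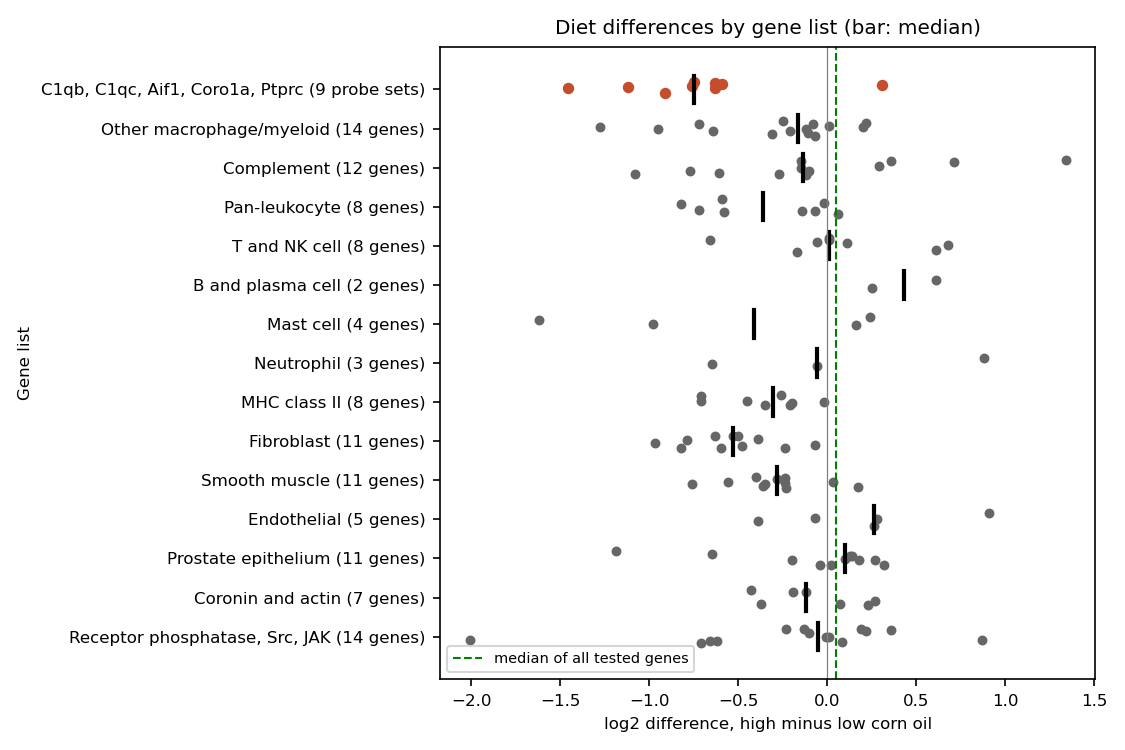
Log2 difference, high minus low corn oil (horizontal axis), of the 9 tested probe sets of the 5 genes (orange, top row) and of the tested genes of each list (grey), with each median as a bar and the median of all tested genes, 0.05, as a dashed line. The 5 genes were chosen on this contrast. The fibroblast and MHC class II lists have all their points below 0.

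Markers of other cell types were measured on the same arrays, and their part in the result was not tested. All 11 tested fibroblast markers were below 0, with a median of -0.53, 6 with separate groups, and a summed intensity of 74476 to 100387 under the high diet, against 109422 to 154961 under the low diet. Thy1 (-0.82 ± 0.23 SE), Pdgfra (-0.97 ± 0.28) and Dcn (-0.60 ± 0.19) led the list, each with a limma adjusted p of 0.462. Limma called Dcn without high corn oil replicate 1, a setting that gave 214 calls among 5244 probe sets. By array the fibroblast list stood at -0.39, -0.56 and -0.70 under the high diet and at 0.36, -0.15 and -0.20 under the low diet relative to the low mean, and low corn oil replicate 1 was its highest array, as it was for C1qb and C1qc. The same array was also the highest low corn oil array for the macrophage, complement, mast cell, neutrophil, smooth muscle, prostate epithelium and coronin lists, so this order is not particular to fibroblast markers. The fibroblast median was -0.23 when replicate 3 of the high diet was placed in the low group.

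MHC class II genes, which macrophages, dendritic cells and B cells use to present antigen, were below 0 in 8 of 8 cases, with a median of -0.31 and 3 with separate groups. Their summed intensity was 93062 to 100062 under the high diet, against 109634 to 133156 under the low diet. RT1-DMb was at -0.71 ± 0.22 and RT1-Ba at -0.71 ± 0.23 (limma adjusted p = 0.462 for each), while Cd74, the invariant chain, was at -0.02 ± 0.13. By array the list stood at -0.39, -0.30 and -0.41 under the high diet and at -0.06, 0.25 and -0.19 under the low diet, and low corn oil replicate 2 was its highest array, as it was for Aif1 and Coro1a and for the pan-leukocyte and the receptor phosphatase and kinase lists.

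The tested lymphocyte markers did not show this direction as lists. Only 8 of the 21 measured T and NK cell genes passed the filter. Of 8 tested T and NK cell genes 3 were below 0, with a median of 0.01, and Ctla4, an inhibitory receptor of T cells, had all high corn oil values above the low ones (0.61 ± 0.24 SE, limma adjusted p = 0.487). Without high corn oil replicate 1, 1 of the 8 was below 0 and the median was 0.21. The defining T cell gene Cd3d was below the filter, at -23.1, -576.6 and -100.6 under the high diet, against 90.1, 176.2 and -255.8 under the low diet. Of the other T and NK cell genes below the filter, Cd2 and Ccl5 had all high corn oil values below the low ones. Cd28 and Klrd1 had them all above, and the groups of the rest overlapped. The summed T and NK intensity was 5869 to 10776 under the high diet, against 7761 to 8012 under the low diet. The only B and plasma cell genes tested, Sdc1 and Cd79b, were at 0.25 ± 0.13 and 0.61 ± 0.39, and are too few to stand for those cells. Sdc1 was much the brighter, from 3876.7 to 4931.9 over the arrays, against 356.9 to 1159.7 for Cd79b. Which cells the Sdc1 signal came from was not tested.

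Of 12 measured mast cell genes only 4 were tested, and 2 of these 4 were below 0, with a median of -0.41. That median ranged from -0.73 to -0.12 over the other settings, with -0.12 without low corn oil replicate 1. The protease gene Mcpt1l1 was at -1.62 ± 0.34 (limma adjusted p = 0.462). Without high corn oil replicate 1 limma called it, as 1 of 214 calls among 5244 probe sets. Cma1 was at -0.98 ± 0.71 with overlapping groups and 1 value below 0. Tpsab1 and Tpsb2 were above 0, at 0.24 ± 0.28 and 0.16 ± 0.19. Below the filter, Cpa3 and the Ms4a2 probe sets M22923_at and M22924_at had all high corn oil values below the low ones. Mcpt9, also below the filter, had them all above. Each of these dim probe sets had values below 0. The mast cell sum was 5548 to 8273 under the high diet, against 9134 to 12259 under the low diet. The separation of these sums rested on Mcpt1l1, at 2308, 2230.4 and 909.2 against 6665.4, 4785.7 and 5272.2. Of 3 neutrophil genes 2 were below 0, with a median of -0.06, or 0.42 without low corn oil replicate 1. Smooth muscle genes were below 0 in 9 of 11 cases, with a median of -0.28, and without high corn oil replicate 1 in 6 of 11, with a median of -0.06. Endothelial genes were below 0 in 2 of 5 cases, with a median of 0.26 that was -0.23 with the filter at the 60th percentile, and prostate epithelial genes in 4 of 11, with a median of 0.10 that was -0.07 without high corn oil replicate 1.

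**Figure D5:**
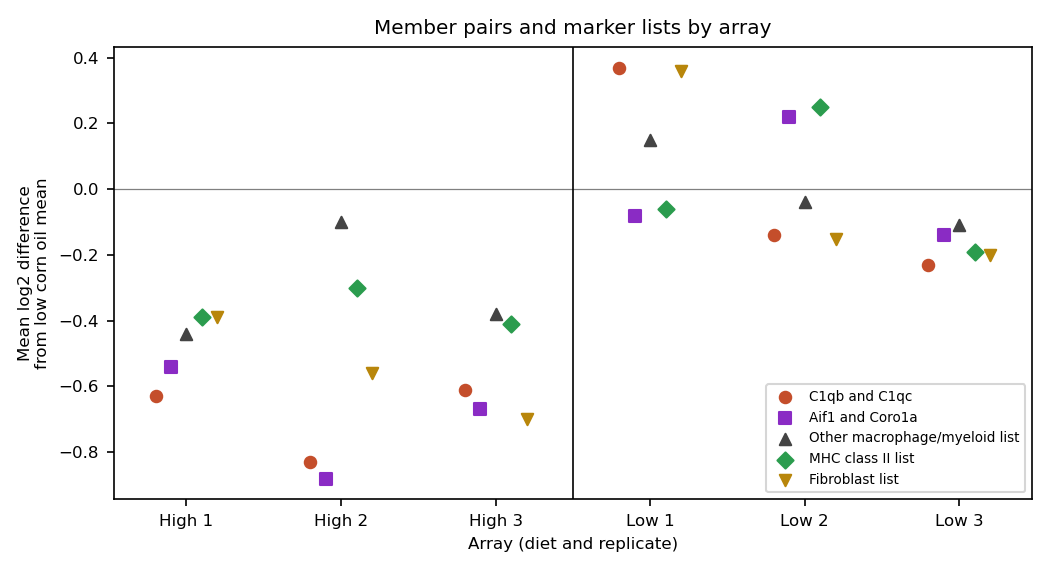
Mean log2 difference from the low corn oil mean (vertical axis) on each array for C1qb with C1qc, Aif1 with Coro1a, and 3 marker lists, high corn oil left and low corn oil right. On low corn oil replicate 1 the C1q pair (0.37) and the fibroblast list (0.36) are highest, and on low corn oil replicate 2 Aif1 with Coro1a (0.22) and the MHC class II list (0.25) are.

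Likeness to a common profile was measured across the array as a description. The profile was the mean of the centred log2 values of C1qb, C1qc, Aif1 and Coro1a, and Pearson's r was taken over the 6 arrays, which form 2 separate diet groups, so a high r mostly restates the diet difference. The 8 genes nearest to it were Rcn3 (r = 0.987), Mafk (0.986), Cript (0.984), Myl9 (0.982), Tent4a (0.979), Ciapin1 (0.969), Nap1l1 (0.967) and Prkaa1 (0.959). Rcn3, a calcium-binding protein gene of the endoplasmic reticulum, read 533, 185.6 and 625 under the high diet, against 2935, 2069 and 1368 under the low diet. None of these 8 is on the macrophage list, but that list held only 14 of the 3162 tested genes, so nothing is read from this. The Ptprc probe set M25823_s_at ran the other way, with r = -0.445.

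With the diet means removed, the genes nearest to the profile over the same 6 arrays were Cript (r = 0.997), Neurl3 (0.991), Eif2s1 (0.984), Clk3 (0.984), Emc8 (0.982), Pdap1 (0.982), Myl9 (0.981) and Ola1 (0.978). Cript and Myl9, which encodes a myosin light chain of smooth muscle, were in both groups of 8. Myl9 read 33903, 30223 and 33162 under the high diet, against 45381, 42756 and 36783 under the low diet. With 6 arrays and 3162 genes some genes come this close to any profile.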

How the data were processed

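Total RNA (6 ug per array) from 6 dorsolateral prostates was hybridized to a short-oligonucleotide rat array, per the labels' protocols. The deposited intensity values were scaled by the authors, with the same trimmed mean of 2500 on every array; per the submitters' processing notes the tool was MAS5, whose settings are not given in the sources used here. From 18.6% to 23.1% of an array's values were at or below 0, so dim probe sets have no meaningful fold. Whether the tool named in those notes gives values below 0 was not checked, so its name is the submitters' alone. Detection calls were not used here.

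Symbols came from the platform annotation, updated through gene identifiers to GRCr8. Of 8799 probe sets, 59 were controls, 7006 had 1 gene, 308 several and 1426 none. Values were floored at 0 and transformed as log2(value + 156.1), where the pseudocount is the median of all values, 624.5, divided by 4. Probe sets with a mean at or above the 40th percentile were tested with limma 3.58.1 in R 4.3.3 (intensity trend, no covariate, both directions), adjusted by Benjamini-Hochberg over all 5244; the step was tested on simulated data. The 5 genes, the lists and the tests were chosen with earlier results of these data known. Named were all probe sets of the 5 genes, up to 3 genes of smallest p per list (brightest probe set), a fixed set of complement and macrophage genes where measured, and the 8 genes nearest to the common profile under each of 2 measures. A few further list genes (Lyz2, Lgals3, Cx3cr1, Ctss, Itgam, Pbsn, Serping1, C1qbp, Calr, Cd52, Cd74, Cd3d, Sbp, Tpsb2 and Aif1l) were named after their values were seen. So were Cd55, Cd2, Ccl5, Cd28, Klrd1, Cpa3, Ms4a2 and Mcpt9. With 3 arrays per diet, precision is limited by their number.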

Additional observations from a re-analysis of the deposited data

How the results depend on the processing

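Other settings changed the pseudocount, the transformation, the filter, the normalization, the variance trend, array weights, a block on replicate number or on spike-in level, and the group of high corn oil replicate 3, and left out each array in turn. Limma called 0 probe sets with all arrays and the filter, and 9 with all arrays and no filter. When 1 array was left out it called 0 to 214, the 214 without high corn oil replicate 1. Among the list genes at their brightest probe set, Mcpt1l1, Dcn, Msmb, Pbsn and Ptprj were called without that array. At an unadjusted limma p under 0.05 there were 522 with the settings reported and 756 with no filter. There were 1534 with array weights, and 75 when replicate 3 of the high diet was placed in the low group. The median log2 difference of the 5 genes, -0.63, ranged from -0.76 to -0.53, and that of C1qb X71127_at from -0.76 to -0.46. With that array so placed, Coro1a was at -0.40, Aif1 U10894_s_at at -0.35 and C1qb X71127_g_at at -0.64. Replicate numbers did not pair the arrays: same-numbered arrays deviated together with r = -0.05, -0.20 and 0.18, and 1 of 3 in each diet correlated best with its own number. With the replicate block limma called 0 probe sets (554 at an unadjusted p under 0.05). Each replicate number holds 1 high and 1 low corn oil array, so this block could not move any log2 difference. The median of the 5 genes, -0.63, was therefore fixed in advance under it. Separation counts and list counts without single arrays were chosen after seeing the data. Low intensity limits Ptprc and the dim C1qc and Aif1 probe sets most.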
